A study of Mus musculus with 30 samples.

Results

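The genes described here are 10 members of the NRF2-controlled and peroxide-detoxifying system, measured in the mouse colon during chemically induced carcinogenesis. They were taken by symbol from a table of 31023 genes, in which all 10 were found, and all 10 passed the filter on low counts. Bulk RNA-seq covered 30 libraries in 10 groups of 3, from male C57BL/6 mice aged 8 to 12 weeks. The mice were either Smox-/-, lacking spermine oxidase in the whole body, or WT. Spermine oxidase converts spermine to spermidine and releases hydrogen peroxide, and the series asks how its loss and a supply of spermidine change the colon during carcinogenesis. The treated groups received 14 mM spermidine in drinking water for 56 days, AOM-DSS, or both. AOM-DSS combines azoxymethane, a mutagen that targets the colon (12.5 mg/kg, intraperitoneal), with 3 rounds of 4% dextran sulfate sodium, a detergent-like irritant of its lining, each lasting 5 days and starting on days 5, 26 and 47. Non-tumor colon was sampled in Smox-/- and WT mice after AOM-DSS with spermidine, after AOM-DSS alone, after spermidine alone and without treatment. Tumors came from Smox-/- mice given AOM-DSS alone and from WT mice given AOM-DSS with spermidine, so the 2 tumor groups differ in spermidine as well as genotype. None of the 30 libraries came from tumors of the converse groups. Which part of Smox was removed is not stated, nor which cells a sample held, nor whether any tumor shares its mouse with a non-tumor library.

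NRF2, encoded by Nfe2l2, is a transcription factor that KEAP1 keeps at low levels by directing its degradation. Oxidants and electrophiles modify KEAP1, NRF2 then accumulates, and with a small MAF partner it binds antioxidant response elements next to its target genes. BACH1, which competes for such elements, is released when heme is abundant. The enzymes made from these targets supply glutathione and reduced thioredoxin, which peroxidases use to remove hydrogen peroxide. In the colon the system meets peroxide from epithelial oxidases and, during colitis, from phagocytes.

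The members fall into 4 roles. Slc7a11, Gclc and Gclm supply glutathione: Slc7a11 encodes the cystine importer xCT, and Gclc and Gclm encode the catalytic and modifier subunits of glutamate-cysteine ligase, its rate-limiting enzyme. Txnrd1, Srxn1 and Prdx1 belong to the thioredoxin system, as the cytosolic thioredoxin reductase, the sulfiredoxin that repairs overoxidised peroxiredoxins, and a peroxiredoxin. Gpx2, the gut epithelial glutathione peroxidase, and Cat, the peroxisomal catalase, remove peroxide directly. Nqo1 encodes a quinone reductase and Hmox1 encodes heme oxygenase 1, which breaks down heme.

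On GRCm38, with the GENCODE vM21 annotation, the glutathione suppliers lie as follows: Slc7a11 (ENSMUSG00000027737.10) at chr3:49892526-50443614 on the minus strand, Gclc (ENSMUSG00000032350.9) at chr9:77754535-77794485 on the plus strand and Gclm (ENSMUSG00000028124.15) at chr3:122245557-122270732 on the plus strand. The thioredoxin genes are Txnrd1 (ENSMUSG00000020250.10) at chr10:82833951-82897712 on the plus strand, Srxn1 (ENSMUSG00000032802.8) at chr2:152105516-152111376 on the plus strand and Prdx1 (ENSMUSG00000028691.12) at chr4:116685544-116700822 on the plus strand. The other 4 are Gpx2 (ENSMUSG00000042808.8) at chr12:76792333-76795554 on the minus strand, Cat (ENSMUSG00000027187.10) at chr2:103453849-103485160 on the minus strand, Nqo1 (ENSMUSG00000003849.8) at chr8:107388225-107403206 on the minus strand and Hmox1 (ENSMUSG00000005413.8) at chr8:75093621-75100589 on the plus strand. Each value covers all exons of a gene. Gpx2 overlaps Fntb on the opposite strand, which had 34487 counts over all libraries against 1076966 for Gpx2, and its pseudogene Gpx2-ps1 had 66.

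Upstream sequence was available from RefSeq, on GRCm38.p6, for 8 of the 10 members, without Hmox1 and Gclc. Windows ran from 250 bases before to 50 bases after each start site and were searched on both strands for the antioxidant response element core TGACNNNGC and the AP-1 site TGANTCA, which can overlap. The core was present in at least 1 window of 4 of these 8 members (Gclm, Txnrd1, Srxn1 and Prdx1). The 8 members have 10 windows, of which Txnrd1 has 3, with the core only in its second. Counted by window rather than by gene, the core was in 12.4% of 32851 mouse windows of the same length. The AP-1 letters were present in Srxn1 and Prdx1 and in 7.81% of all windows. The 250 bases before the start are shown for Txnrd1 (its second listed start), Prdx1, Srxn1 and Nqo1, because 3 of these 4 genes changed in a comparison below and because they differ in these letters. Capitals mark matches, and each sequence reads 5′ to 3′ on the strand of its gene.
Txnrd1, chr10:82858956-82859205, plus strand: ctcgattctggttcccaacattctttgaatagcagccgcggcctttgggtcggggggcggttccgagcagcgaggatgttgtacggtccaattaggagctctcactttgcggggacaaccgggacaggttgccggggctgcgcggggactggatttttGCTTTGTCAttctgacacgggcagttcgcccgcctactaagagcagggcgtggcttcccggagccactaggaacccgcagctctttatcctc
Prdx1, chr4:116685349-116685598, plus strand: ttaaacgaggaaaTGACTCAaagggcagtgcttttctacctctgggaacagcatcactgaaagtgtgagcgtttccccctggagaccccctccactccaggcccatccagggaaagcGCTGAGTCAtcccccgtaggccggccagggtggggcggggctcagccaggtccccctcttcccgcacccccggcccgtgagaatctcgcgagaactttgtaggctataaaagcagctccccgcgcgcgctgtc
Srxn1, chr2:152105274-152105523, plus strand: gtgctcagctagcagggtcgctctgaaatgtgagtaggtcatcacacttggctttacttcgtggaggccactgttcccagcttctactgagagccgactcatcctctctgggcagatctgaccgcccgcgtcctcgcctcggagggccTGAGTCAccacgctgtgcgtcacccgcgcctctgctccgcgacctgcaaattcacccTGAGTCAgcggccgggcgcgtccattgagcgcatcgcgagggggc
Nqo1, chr8:107403206-107403455, minus strand: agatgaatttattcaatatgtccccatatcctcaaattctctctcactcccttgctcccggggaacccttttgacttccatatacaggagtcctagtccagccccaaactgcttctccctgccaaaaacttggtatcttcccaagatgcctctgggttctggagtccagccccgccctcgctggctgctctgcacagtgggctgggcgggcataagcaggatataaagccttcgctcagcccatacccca
The core in Txnrd1 and Prdx1 lies on the strand opposite to the gene. In Prdx1 it shares 7 bases with one of its AP-1 matches. Srxn1 has 2 AP-1 matches in the printed part, and its core match lies after the start site, outside it. Nqo1 has no match in this window, which says nothing of elements elsewhere.

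Levels below are CPM, on library sizes scaled by TMM (trimmed mean of M values), and a gene rose or fell where the adjusted p of edgeR's quasi-likelihood test (Benjamini-Hochberg over 19558 genes) was under 0.05. Library totals ran from 33060607 to 81011304 counts. The 3 libraries of a group give little on spread, so the p-values rest on a spread estimated over all 30 libraries, not only those compared. Smox itself, counted over its whole locus, was at 18.6 to 68.7 CPM (median 28.7) in 15 Smox-/- libraries and at 25.1 to 169 CPM (median 48.2) in 15 WT libraries. In untreated colons it averaged 30.8 ± 4.78 CPM in Smox-/- and 26.5 ± 1.23 CPM in WT (SD, n = 3 each), so these counts do not check the genotype labels, which name the groups throughout. Libraries that stood apart were untreated WT replicate 3, with skeletal muscle markers at 7964 summed CPM, distal hindgut position genes at 6.35 summed CPM and 21.7% mitochondrial counts. Smox-/- replicate 1 after AOM-DSS with spermidine was labelled non-tumor but had crypt and Wnt target genes at 1217 summed CPM. Smox-/- tumor replicate 3 had these genes at 288 summed CPM, against 1795 and 3004 in the other tumors of its group. The highest WT non-tumor library after AOM-DSS alone had them at 343 summed CPM. Untreated Smox-/- replicate 3 had squamous epithelium markers at 1890 summed CPM. Epithelial markers were at 11007 to 22931 summed CPM in every library.

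Scaled by exon length, the most abundant members over all libraries were Gpx2, at a mean of 187 CPM per kb, and Prdx1, at 157 CPM per kb. Txnrd1, Srxn1, Nqo1, Gclc, Cat and Gclm followed between 48.3 and 17.9 CPM per kb. Hmox1, at 4.38 CPM per kb, and Slc7a11, at 0.994 CPM per kb, were the least abundant. The same pair had the widest range. Slc7a11 group means spanned 12.3-fold and Hmox1 group means 6.90-fold, both lowest in a WT group without AOM-DSS and highest in WT tumors. Prdx1 group means spanned 1.41-fold and Gclm group means 1.51-fold. Nqo1 spanned 3.49-fold, Gpx2 3.57-fold, Cat 2.43-fold, Srxn1 2.33-fold, Gclc 2.07-fold and Txnrd1 1.94-fold. When the 10 groups were ordered by mean, few neighbours in the order were separated. Cat split cleanly: all 6 tumor libraries, at 36.4 to 50.2 CPM, were below all 24 other libraries, at 52.2 CPM and above. The share of all genes that split in this way was not computed. For Srxn1 and Slc7a11 the break also fell between the 2 tumor groups and the next group mean, but single libraries of other groups lay beyond it. Nqo1 had a break between untreated Smox-/- and its neighbour, WT after spermidine, and Txnrd1 between untreated WT and its neighbour, Smox-/- after spermidine. Every other pair of neighbours overlapped, for these 5 genes and for Hmox1, Gclc, Gclm, Gpx2 and Prdx1.

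**Figure D1:**
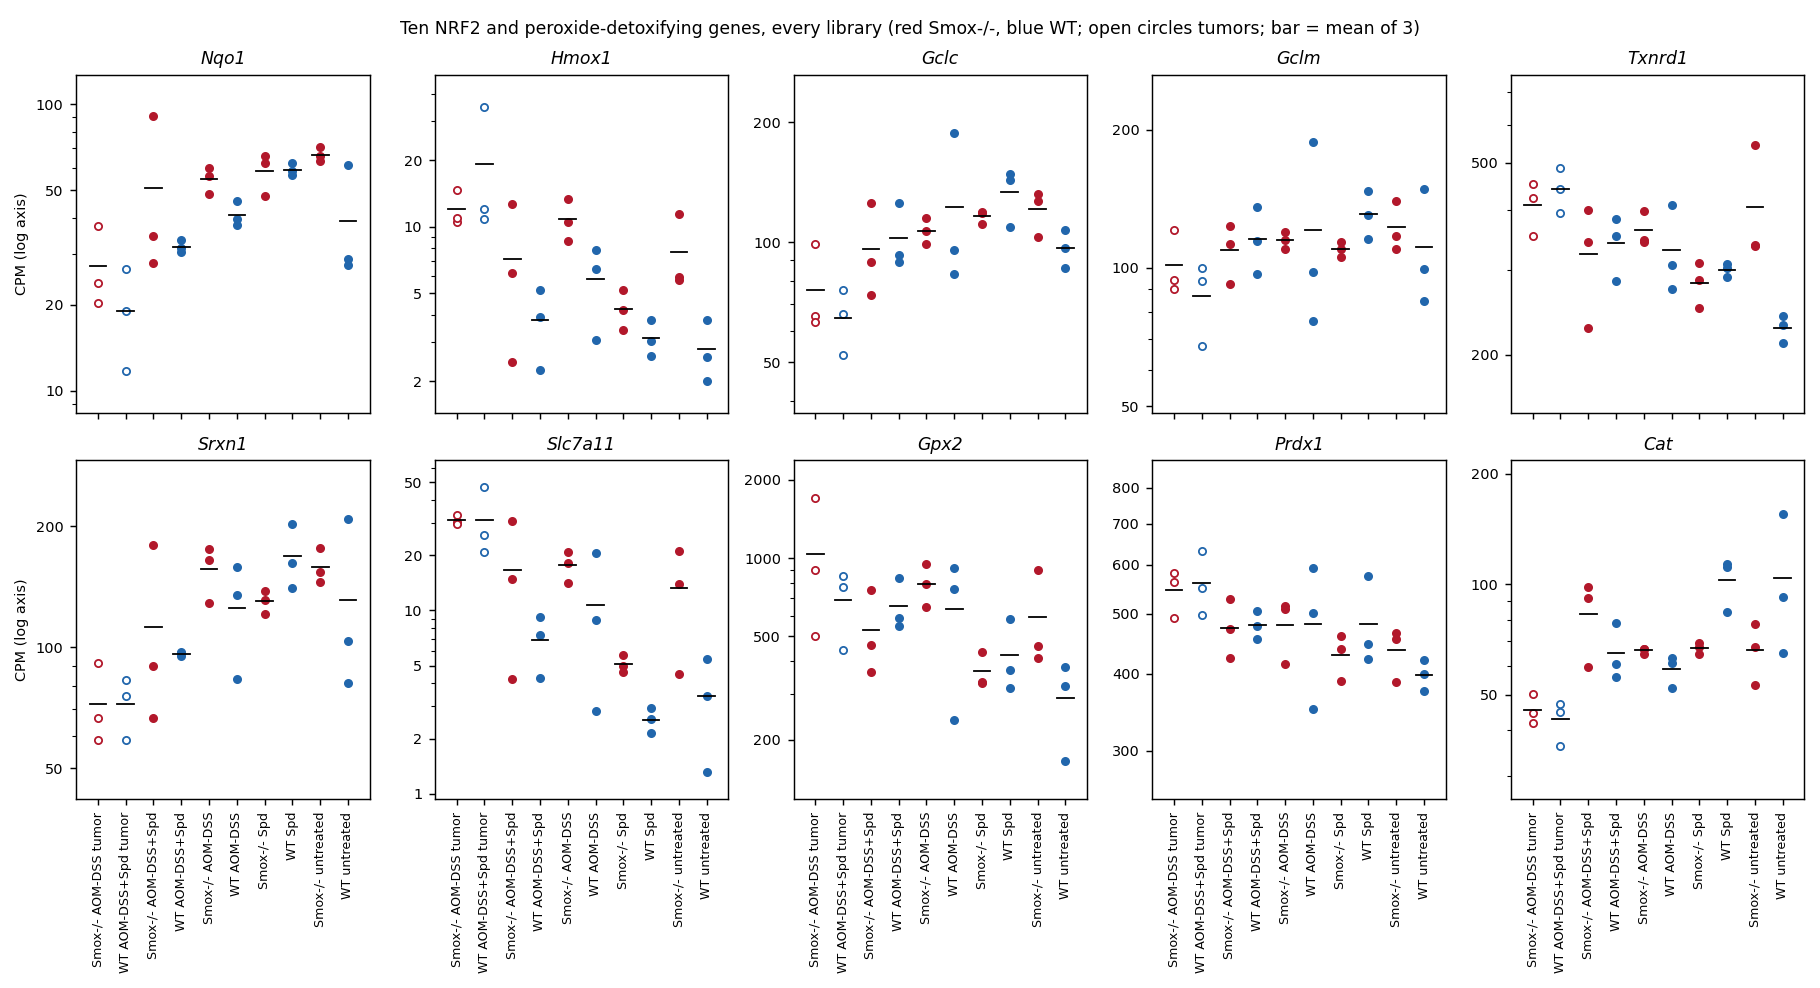
CPM (log axis) of the 10 genes in each of 30 libraries, with red for Smox-/-, blue for WT, open circles for tumors and a bar at the mean of 3. The tumor groups have the highest group means for Hmox1 (10.5 to 35.0 CPM), Slc7a11 (20.8 to 47.0 CPM), Txnrd1 and Prdx1. They have the lowest group means for Nqo1, Srxn1, Cat, Gclc and Gclm, and Gpx2 has its highest in Smox-/- tumors.

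In WT mice given AOM-DSS with spermidine, the 2 least abundant members rose in tumors and 2 others fell, relative to non-tumor colon. Hmox1 rose 5.09-fold and Slc7a11 4.50-fold, while Gclc fell by 0.67 and Cat by 0.60 on the log2 scale. These 4 of 10 calls stand against 34.4% of all genes called in this comparison. Nqo1, Gclm, Txnrd1, Srxn1, Gpx2 and Prdx1 did not pass. Of these, Srxn1 passed in a fit of the 2 groups alone (log2 change -0.41, adjusted p = 0.0393). Across the settings that left out no library of these groups, that fit among them, 5632 to 7519 of all genes were called. Nqo1 passed without tumor replicate 2 (log2 change -1.07, adjusted p = 0.0409). The median log2 change was -0.17 over the members and 0.01 over all genes tested.

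Hmox1 was at 10.9, 12.1 and 35.0 CPM in the WT tumors, against 5.16, 3.93 and 2.25 CPM in the non-tumor colons. Every tumor was above every non-tumor library, and tumor replicate 3 was the highest of all 30 libraries. The log2 change was 2.35 (SE 0.52, adjusted p = 0.00194). It remained called in all 6 fits that left out 1 of these libraries, with log2 changes of 1.59 to 2.66. Macrophage markers moved with it: the 9 genes of the list summed to 162 to 201 CPM in these tumors and to 28.3 to 96.4 CPM in the non-tumor colons. At least 8 of the 9 were above 0 in each tumor, and Cd163, a marker of scavenging macrophages, averaged 0.011 CPM there. The 4 red cell markers found of 5 listed summed to 12.9 to 70.6 CPM in the tumors and 12.4 to 38.8 CPM in the non-tumor colons, which overlap. The part of these cells in the Hmox1 result was not tested. In bulk tissue fewer cells of a type and less RNA per cell cannot be told apart, for this and for every other result.

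Slc7a11 was at 25.8, 20.8 and 47.0 CPM in the WT tumors, against 9.21, 7.30 and 4.25 CPM in the non-tumor colons. The groups did not overlap, and tumor replicate 3 was again the highest. The log2 change was 2.17 (SE 0.65, adjusted p = 0.0141), and it missed the threshold without tumor replicate 3 (adjusted p = 0.0674) or non-tumor replicate 3 (adjusted p = 0.0656).

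Gclc was at 52.1, 75.9 and 65.9 CPM in the WT tumors, against 125, 89.1 and 92.7 CPM in the non-tumor colons, and Cat was at 36.4, 47.3 and 44.8 CPM, against 55.8, 60.7 and 78.3 CPM. Every tumor was below every non-tumor library for both genes. The log2 changes were -0.67 for Gclc (SE 0.25, adjusted p = 0.0418) and -0.60 for Cat (SE 0.23, adjusted p = 0.0454). Both calls were close to the threshold. Gclc stayed called only when tumor replicate 2 was left out. Its adjusted p was 0.214, 0.0628 and 0.0682 without non-tumor replicates 1, 2 and 3, and 0.159 and 0.0817 without tumor replicates 1 and 3. Cat missed the threshold without each of the 6 libraries in turn, with adjusted p of 0.0545 to 0.213, and had adjusted p of 0.0512 by DESeq2 and 0.0565 with RLE scaling. With no filter on low counts the adjusted p was 0.0602 for Gclc and 0.0619 for Cat. Colonocyte markers summed to 271 to 507 CPM in these tumors and to 2484 to 4412 CPM in the non-tumor colons, smooth muscle markers to 45.2 to 140 and 1076 to 1355 CPM, and crypt and Wnt target genes to 1629 to 3993 and 103 to 156 CPM. Their part in the 4 calls was not tested.

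**Figure D2:**
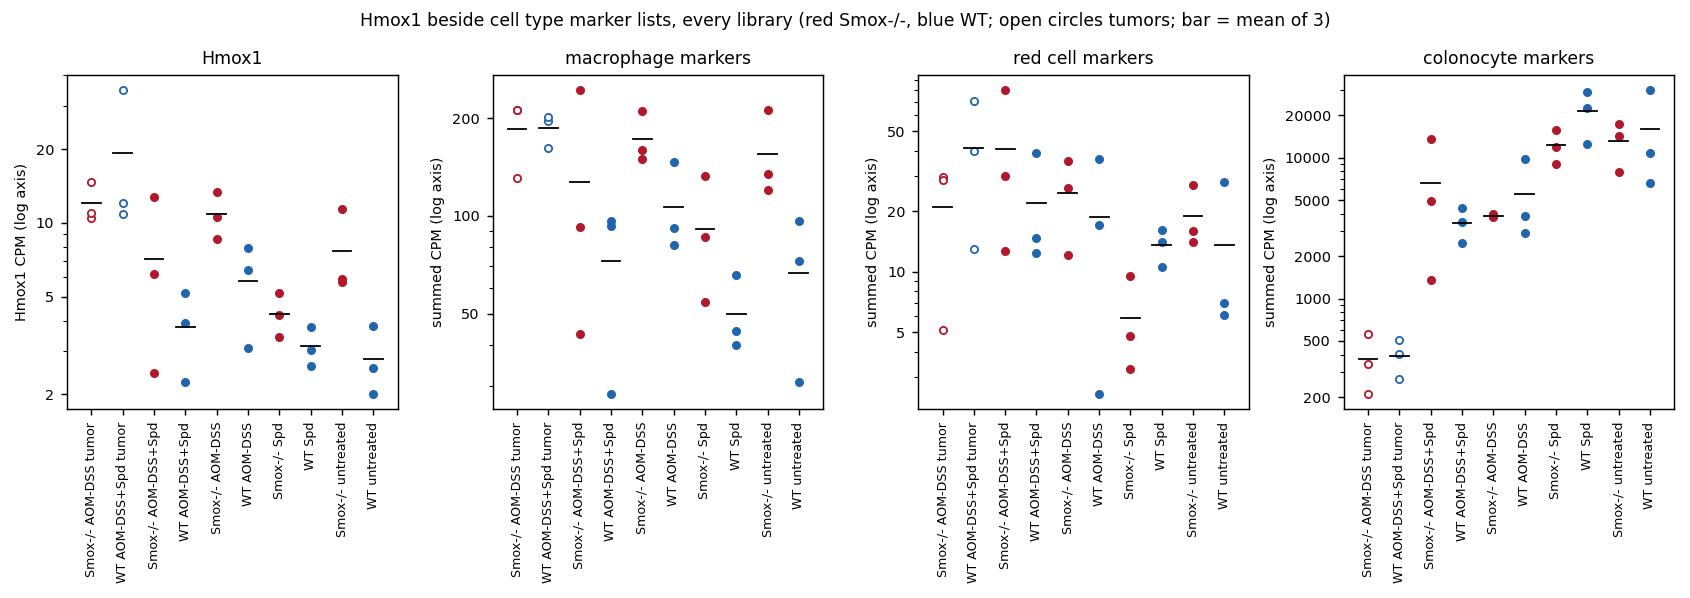
Hmox1 and the summed macrophage, red cell and colonocyte markers (CPM, log axes) in each of 30 libraries, with red for Smox-/-, blue for WT, open circles for tumors and a bar at the mean of 3. WT tumors are above their non-tumor colons for Hmox1 and for macrophage markers, while Smox-/- tumors and their non-tumor colons overlap for both.

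In Smox-/- mice given AOM-DSS alone, Nqo1 and Srxn1 fell in tumors relative to non-tumor colon and no member rose. This is 2 of 10, against 24.6% of all genes called. The median log2 change was -0.01 over the members and -0.01 over all genes tested.

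Srxn1 was at 66.7, 58.6 and 91.2 CPM in the Smox-/- tumors, against 129, 176 and 165 CPM in the non-tumor colons. Nqo1 was at 23.7, 20.2 and 37.6 CPM in the tumors, against 56.2, 48.7 and 59.7 CPM. All tumors were below all non-tumor libraries for both genes, with tumor replicate 3 nearest to them. The log2 changes were -1.12 for Srxn1 (SE 0.32, adjusted p = 0.0170) and -1.01 for Nqo1 (SE 0.35, adjusted p = 0.0393). Srxn1 missed the threshold without non-tumor replicate 2 (adjusted p = 0.0617) or 3 (0.0581) and without tumor replicate 1 (0.0822) or 2 (0.0830). Nqo1 missed it without non-tumor replicate 1 (0.0861), 2 (0.0676) or 3 (0.118) and without tumor replicate 1 (0.146) or 2 (0.156). Without tumor replicate 3, the library low in Wnt target genes, both were called. With no filter on low counts Nqo1 had an adjusted p of 0.0632. Colonocyte markers summed to 210 to 556 CPM in these tumors and to 3795 to 3958 CPM in the non-tumor colons, B and plasma cell markers to 59.4 to 583 and 1839 to 3616 CPM, enteric neuron and glia markers to 14.9 to 32.8 and 46.7 to 142 CPM, and crypt and Wnt target genes to 288 to 3004 and 63.2 to 87.9 CPM. Mitochondrial counts were 2.57 to 3.36% in the tumors and 4.52 to 6.10% in the non-tumor colons. None of these ranges overlapped, and their part in the result was not tested.

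Hmox1 was not called in the Smox-/- tumors. It was at 10.5, 10.9 and 14.7 CPM in the Smox-/- tumors, against 13.3, 8.61 and 10.6 CPM in the non-tumor colons, which overlap (log2 change 0.15, SE 0.49, adjusted p = 0.843). Macrophage markers overlapped as well, at 131 to 212 summed CPM in these tumors and 149 to 210 summed CPM in the non-tumor colons. The difference of the 2 tumor changes, Smox-/- minus WT, was -2.19 for Hmox1 (SE 0.70, adjusted p = 0.264). None of the 10 members was called in that difference, against 0.0102% of all genes. Hmox1 alone had an unadjusted p under 0.05 there, and DESeq2 called 0 members. This test was added after seeing the data, and in it genotype and spermidine cannot be told apart.

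Slc7a11 was at 33.2, 30.3 and 29.4 CPM in the Smox-/- tumors, against 20.7, 14.2 and 18.0 CPM in the non-tumor colons. These groups did not overlap either, but the log2 change of 0.81 (SE 0.63) did not pass (adjusted p = 0.349). Slc7a11 passed in a fit of the 2 groups alone (adjusted p = 0.0288), and so did Cat (log2 change -0.52, adjusted p = 0.0292). Over all genes 3087 to 5949 were called across the settings that left out no library of these groups. The fit of the 2 groups alone is among these settings, and its own share is not given here. Across the 10 members, 1 had every Smox-/- tumor above every non-tumor library and 4 had every tumor below, where the shares over all genes were 20.9% and 21.5%. In WT the numbers were 3 above and 4 below, where the shares over all genes were 28.3% and 27.3%. Gclc, Nqo1, Srxn1 and Cat were the 4 below in both genotypes, and the share of all genes below in both was not computed. For Gclc in Smox-/- the gap was narrow, with the highest tumor at 98.8 CPM and the lowest non-tumor colon at 99.1 CPM.

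Gpx2 and Prdx1, the 2 abundant peroxidases, were not called in either tumor comparison. Gpx2 was at 898, 502 and 1698 CPM in the Smox-/- tumors, against 945, 650 and 792 CPM in their non-tumor colons. In WT it was at 442, 853 and 771 CPM in tumors, against 835, 589 and 546 CPM in non-tumor colons. The groups overlapped in both genotypes, and Smox-/- tumor replicate 3 was the highest of all 30 libraries. The 95% interval of the log2 change was -0.57 to 1.33 in Smox-/- and -0.88 to 1.02 in WT. Prdx1 was narrower, with intervals of -0.14 to 0.51 and -0.11 to 0.55.

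**Figure D3:**
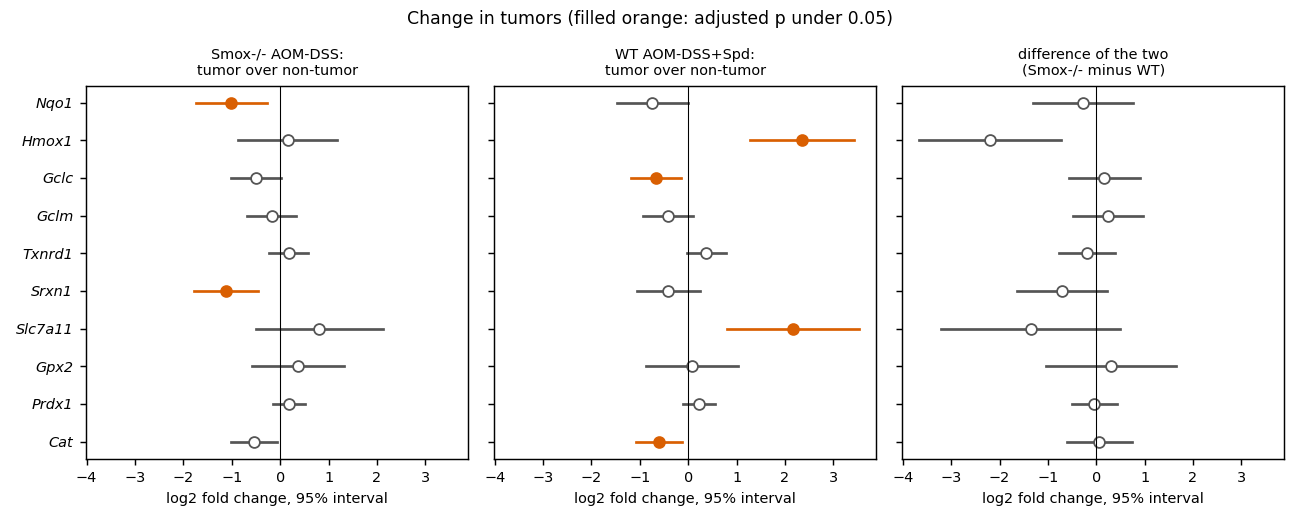
Log2 change with its 95% interval in tumors over non-tumor colon for Smox-/- mice after AOM-DSS (left) and WT mice after AOM-DSS with spermidine (middle), and the difference of these changes (right), with filled orange where adjusted p was under 0.05. Nqo1 and Srxn1 are filled on the left, Hmox1, Gclc, Slc7a11 and Cat in the middle, and none on the right.

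Between the tumor groups, Smox-/- tumors after AOM-DSS and WT tumors after AOM-DSS with spermidine, edgeR called 0 of 10 members, against 0.0614% of all genes. By DESeq2 the count was also 0, and no unadjusted p was under 0.05. Hmox1 averaged 12.1 ± 2.31 CPM in Smox-/- tumors and 19.3 ± 13.6 CPM in WT tumors (SD, n = 3 each), and Gpx2 averaged 1033 ± 609 and 689 ± 218 CPM. The groups overlapped for all 10 members. Among the other pathway genes 1 of 102 was called, Smox itself, at 56.8 ± 12.4 CPM in Smox-/- tumors and 139.7 ± 25.3 CPM in WT tumors (SD, n = 3 each; log2 change -1.30, SE 0.24, adjusted p = 0.0357). That call was lost in 5 of 6 fits that left out 1 library, all but the one without Smox-/- tumor replicate 2, with adjusted p of 0.0514 to 0.310, and in a fit of the 2 groups alone (adjusted p = 0.514).

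Of 11 regulators of the system, 1 rose and 0 fell in Smox-/- tumors, and 3 rose and 2 fell in WT tumors. Over all genes 24.6% were called in Smox-/- tumors and 34.4% in WT tumors. The rise in Smox-/- tumors was Mafg, and the calls in WT tumors were rises of Mafg, Maff and Rbx1 and falls of Bach1 and Nfe2l1. NRF2 itself (Nfe2l2) and Keap1 were called in neither. Nfe2l2 averaged 112 ± 12.8 CPM in Smox-/- tumors and 169 ± 9.64 CPM in their non-tumor colons (SD, n = 3 each; adjusted p = 0.0546). In WT it averaged 132 ± 16.4 and 175 ± 20.4 CPM (adjusted p = 0.171). Bach1 fell in WT tumors, to 61.4 ± 11.6 CPM, against 92.0 ± 6.63 CPM in non-tumor colons (adjusted p = 0.0431). It was called in 1 of 6 fits that left out 1 library, the one without tumor replicate 2, and its adjusted p reached 0.156 in the others and was 0.0718 with no filter. NRF2 protein and its stability were not measured.

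Other genes of the pathway, from lists drawn up around the members, mostly fell where they changed in tumors. Of 102 tested, 12 rose and 29 fell in Smox-/- tumors, and 15 rose and 30 fell in WT tumors, where 24.6% and 34.4% of all genes were called. Over all genes 11.4% rose and 13.2% fell in Smox-/- tumors, and 16.9% rose and 17.5% fell in WT tumors. With 1 library left out the pathway calls numbered 10 to 48 in Smox-/- tumors, against 41 with all, and 30 to 44 in WT tumors, against 45. The lowest numbers were 10 without Smox-/- tumor replicate 1 and 11 without replicate 2, and 30 without WT tumor replicate 3. The median log2 change over the 102 was -0.32 in Smox-/- tumors and -0.16 in WT tumors, where the medians over all genes were -0.01 and 0.01. The glutathione synthesis and reduction list, which also holds the glutathione transferases, had 2 of 22 rise and 9 fall in Smox-/- tumors, and 2 rise and 10 fall in WT tumors. Thioredoxins, peroxiredoxins and their partners had 2 of 15 rise and 9 fall in Smox-/- tumors, and 2 rise and 6 fall in WT tumors. Other NRF2 targets had 5 of 23 rise and 8 fall, and 4 rise and 10 fall. None of the 5 other glutathione peroxidases was called in either. Of 3 superoxide dismutases 1 fell in each. Not every list leaned to falls. Of 9 genes that supply NADPH 1 rose and 0 fell in Smox-/- tumors, and 2 rose and 0 fell in WT tumors. Of 14 sources of hydrogen peroxide 1 rose and 2 fell in Smox-/- tumors, and 2 rose and 1 fell in WT tumors.

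In WT tumors the 3 largest falls among these 102 genes were in glutathione transferases. Gstm3 was at 4.59 ± 4.08 CPM in tumors and 47.4 ± 15.6 CPM in non-tumor colons (log2 change -3.37, adjusted p = 0.000578). Gstm2 was at 9.36 ± 8.09 and 91.2 ± 21.8 CPM, and Gstt1 at 2.03 ± 1.23 and 17.9 ± 5.00 CPM (SD, n = 3 each). Reads of close family members such as Gstm2 and Gstm3 can be split between them, so their separate values are uncertain. The largest rises were in Abcc2, a glutathione conjugate exporter, at 69.9 ± 50.7 CPM in tumors and 2.35 ± 0.73 CPM in non-tumor colons, in Me1, which supplies NADPH, and in Mafg, a small MAF partner of NRF2. Mafg was at 186 ± 67.3 and 49.8 ± 3.66 CPM (log2 change 1.90, adjusted p = 0.000474). Abcc2, Mafg, Gstm3, Gstm2 and Gstt1 stayed called without each of the 6 libraries. Me1 (log2 change 1.93) missed the threshold without non-tumor replicate 2 (adjusted p = 0.0766) or 3 (0.109) or tumor replicate 3 (0.133).

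In Smox-/- tumors Abcc2 rose by 3.76 and Mafg by 1.31 on the log2 scale. Both missed the threshold without tumor replicate 2 (adjusted p of 0.0551 for Abcc2 and 0.0845 for Mafg), and Mafg also in a fit of the 2 groups alone (0.0530). Abcc4, another exporter, rose by 1.59 and stayed called in 1 of 6 fits, without tumor replicate 3, and its adjusted p was 0.0527 to 0.131 in the others and 0.0678 with no filter. Slc40a1, the iron exporter ferroportin, fell to 62.4 ± 20.2 CPM in tumors, against 265 ± 84.0 CPM in non-tumor colons, and missed the threshold only without tumor replicate 1 (adjusted p = 0.0586). Ugdh, which makes the glucuronide donor, fell by 1.89 and missed it without tumor replicate 1 (0.0754) or 2 (0.0693). Gstm3 fell by 1.84 and missed it without tumor replicate 1 (0.117) or 2 (0.116) or non-tumor replicate 1 (0.0703) or 3 (0.0606).

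**Figure D4:**
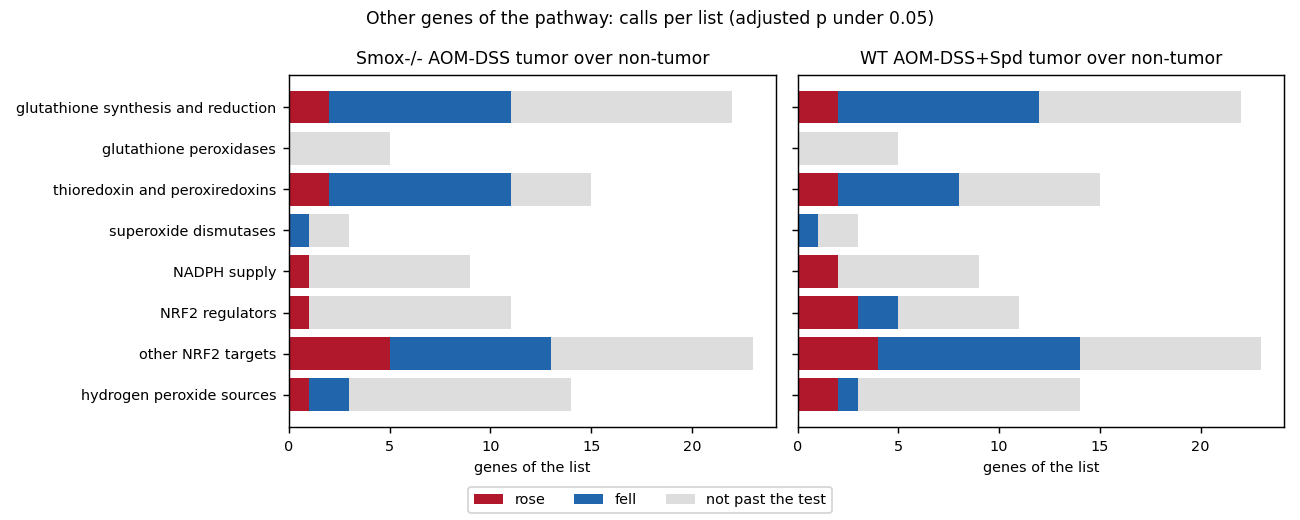
Number of genes in each pathway list that rose (red), fell (blue) or did not pass (grey) in tumors over non-tumor colon, for Smox-/- mice after AOM-DSS (left) and WT mice after AOM-DSS with spermidine (right). Falls outnumber rises in the glutathione, thioredoxin and other NRF2 target lists, and no glutathione peroxidase of that list was called.

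Untreated Smox-/- colons were compared with untreated WT colons to ask what loss of the peroxide-producing oxidase does at rest. Txnrd1 rose 1.78-fold, and this was the only call, 1 of 10 against 5.95% of all genes. By value 9 of 10 members were higher in Smox-/-, all but Cat. The median log2 difference was 0.54 over the members and -0.01 over all genes tested.

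Txnrd1 was at 335, 545 and 337 CPM in the untreated Smox-/- colons, against 212, 231 and 241 CPM in the WT colons. The groups did not overlap, and Smox-/- replicate 2 was the highest of all 30 libraries. The log2 change was 0.83 (SE 0.20, adjusted p = 0.0236). It missed the threshold without WT replicate 1 (adjusted p = 0.0606) or 3 (0.101) and without Smox-/- replicate 2 (0.185, log2 change 0.55) or 3 (0.0740). A fit of these 2 groups alone gave an adjusted p of 0.122.

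Hmox1 was at 5.91, 11.4 and 5.77 CPM in the untreated Smox-/- colons, against 2.01, 2.57 and 3.81 CPM in WT. Slc7a11 was at 4.52, 21.1 and 13.9 CPM, against 3.43, 5.45 and 1.31 CPM. Hmox1 did not overlap between the genotypes and Slc7a11 did, and Smox-/- replicate 2 was the highest for both. Neither passed, with adjusted p of 0.0773 for the 2.76-fold difference in Hmox1 and 0.0696 for the 3.88-fold difference in Slc7a11. DESeq2 did call them, at adjusted p of 0.0343 and 0.0182, and it called 2664 of all genes, where edgeR called 1164. Slc7a11 was also called by edgeR without Smox-/- replicate 1 (adjusted p = 0.0431).

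Nqo1 was at 65.8, 63.1 and 70.9 CPM in the untreated Smox-/- colons, against 27.4, 28.8 and 61.2 CPM in WT, and Gpx2 was at 459, 904 and 413 CPM, against 323, 380 and 165 CPM. Neither gene overlapped, and WT replicate 3 lay close to the Smox-/- values for Nqo1 and lowest of all for Gpx2. Neither passed (adjusted p = 0.176 and 0.166). Cat was at 67.5, 53.2 and 77.8 CPM, against 92.2, 65.1 and 155 CPM, and did not pass (adjusted p = 0.0809). The call without WT replicate 2 put Cat lower in Smox-/- by 0.93 on the log2 scale (adjusted p = 0.0200). Nqo1, Hmox1, Txnrd1 and Gpx2 were the 4 members with all Smox-/- libraries above all WT libraries, where 14% of all genes had this pattern.

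Cell markers differed between these untreated groups too. Macrophage markers, all 9 above 0 in each library, summed to 120 to 211 CPM in Smox-/- and 30.8 to 96.4 CPM in WT. B and plasma cell markers summed to 365 to 1797 and 18.9 to 144 CPM, smooth muscle markers to 1091 to 3395 and 4995 to 7766 CPM, and enteric neuron and glia markers to 22.5 to 41.4 and 85.1 to 318 CPM. Epithelial markers summed to 17671 to 18285 CPM in Smox-/- and 13972 to 15355 CPM in WT. Mitochondrial counts were 3.12 to 4.12% of the library in Smox-/- and 6.95 to 21.7% in WT, again without overlap. The part of these differences in the Txnrd1 result was not tested. Without 2 of the libraries that stood apart, untreated WT replicate 3 and Smox-/- replicate 1 after AOM-DSS with spermidine, Txnrd1 had a log2 change of 0.90 and an adjusted p of 0.0698. The number of genes called overall depended on these libraries: 1164 were called, and 6 without Smox-/- replicate 2, 6 without Smox-/- replicate 3 and 17 without WT replicate 3.

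**Figure D5:**
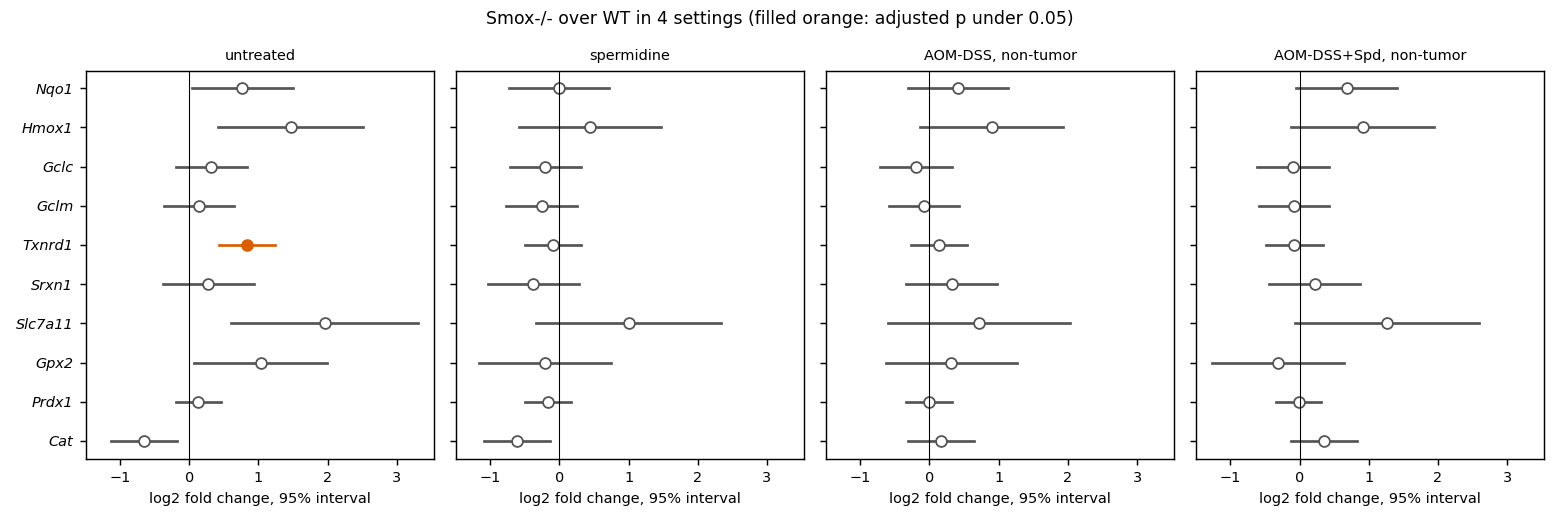
Log2 change with its 95% interval of the 10 genes in Smox-/- over WT non-tumor colons in 4 settings (untreated, spermidine, AOM-DSS, AOM-DSS plus spermidine), with filled orange where adjusted p was under 0.05. Txnrd1 in untreated colons is the one filled point.

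The sources of hydrogen peroxide were the pathway list with the most calls in this comparison, 4 rising of 14 tested and none falling. Duox2, an epithelial dual oxidase, was at 376 ± 32.6 CPM in untreated Smox-/- colons and 113 ± 72.7 CPM in WT (SD, n = 3 each; log2 change 1.73, adjusted p = 0.0340). Cybb, the phagocyte NADPH oxidase, was at 11.02 ± 5.38 and 2.20 ± 1.08 CPM (log2 change 2.32, adjusted p = 0.0403). Duox1, a second dual oxidase, was at 4.18 ± 3.60 and 0.11 ± 0.066 CPM (adjusted p = 0.0144). Duox2 and Cybb were each called in 1 of 6 fits that left out 1 library, Duox2 without WT replicate 2 and Cybb without Smox-/- replicate 1, and their adjusted p ran up to 0.150 and 0.202 in the others. Duox1 missed the threshold without WT replicate 3 (0.0719) or Smox-/- replicate 3 (0.0719). In a fit of the 2 groups alone all 3 had an adjusted p of 0.122, and with no filter Duox2 was at 0.0537 and Cybb at 0.0523. Over the 102 pathway genes 6 rose and 2 fell, where 5.95% of all genes were called. The 8 calls became 0 to 7 with 1 library left out, 0 in a fit of the 2 groups alone, 2 with no filter and 14 by DESeq2.

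In the other 3 settings no member was called between the genotypes. After spermidine 0 of 10 were called by edgeR, against 0.0818% of all genes, with 1 unadjusted p under 0.05 (Cat) and 0 calls by DESeq2. After AOM-DSS, 0 of 10 were called, against 0.0665%, with 0 unadjusted p under 0.05 and 0 calls by DESeq2. After AOM-DSS with spermidine 0 of 10 were called, against 0.251%, with 0 unadjusted p under 0.05 and 0 calls by DESeq2. Cat was at 69.3, 67.6 and 64.5 CPM in Smox-/- colons after spermidine, against 84.1, 112 and 113 CPM in WT. All Smox-/- libraries were below all WT libraries (log2 change -0.62, SE 0.23, adjusted p = 0.365), as for 3 of 10 members and 8.78% of all genes.

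Hmox1 kept a higher value in Smox-/- without passing. After AOM-DSS it was at 13.3, 8.61 and 10.6 CPM in Smox-/- non-tumor colons, against 7.89, 6.42 and 3.08 CPM in WT. These groups did not overlap (log2 change 0.90, SE 0.50, adjusted p = 0.635). After AOM-DSS with spermidine it was at 12.7, 2.45 and 6.20 CPM in Smox-/- and 5.16, 3.93 and 2.25 CPM in WT, which overlap. The highest of these was Smox-/- replicate 1, the library high in crypt and Wnt target genes, and macrophage markers in the 3 Smox-/- libraries were at 244, 43.4 and 92.3 summed CPM, in the same order as Hmox1. Their part was not tested. Nqo1 in that group was at 27.9, 34.6 and 90.5 CPM, a 3.24-fold spread within 3 libraries.

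Whether the genotype difference itself changed with treatment was tested by interaction. For spermidine without AOM-DSS, edgeR called 0 of 10 members, against 2.91% of all genes, with 1 unadjusted p under 0.05 and 1 call by DESeq2. Of all genes edgeR called 569 and DESeq2 called 1761. The member called by DESeq2, also the one with the unadjusted p under 0.05, was Txnrd1. Its interaction was -0.93 on the log2 scale (SE 0.28, adjusted p = 0.0657 by edgeR and 0.0186 by DESeq2): the genotype difference was -0.09 after spermidine and 0.83 in untreated colons. Of the 10 interactions 9 were negative by value, all but Cat, and the untreated groups enter each of them. For AOM-DSS, 0 of 10 were called, against 0% of all genes, with 2 unadjusted p under 0.05 (Txnrd1 and Cat) and 0 calls by DESeq2. For spermidine within AOM-DSS, 0 of 10 were called, against 0%, with 0 unadjusted p under 0.05 and 0 calls by DESeq2.

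Spermidine itself changed no member past the threshold in any of 4 comparisons. In Smox-/- mice without AOM-DSS edgeR called 0 of 10 (0% of all genes, 2 unadjusted p under 0.05, 0 by DESeq2), and in WT 0 of 10 (0.00511%, 0 unadjusted, 0 by DESeq2). In non-tumor colon after AOM-DSS it called 0 of 10 in Smox-/- (0%, 0 unadjusted, 0 by DESeq2) and 0 of 10 in WT (0%, 0 unadjusted, 0 by DESeq2). The 2 unadjusted values were Txnrd1 and Slc7a11. Txnrd1 was at 286, 310 and 250 CPM in Smox-/- colons after spermidine, against 335, 545 and 337 CPM untreated. In WT it was at 290, 309 and 302 CPM after spermidine, against 212, 231 and 241 CPM untreated. Neither pair of groups overlapped, with treated libraries below untreated ones in Smox-/- and above them in WT. In Smox-/- 3 of 10 members and 9.5% of all genes lay below in this way. In WT 3 of 10 members and 7.56% of all genes lay above. The log2 changes were -0.53 (SE 0.20, adjusted p = 0.498) and 0.40 (adjusted p = 0.315). Slc7a11 was at 4.97, 5.70 and 4.59 CPM after spermidine in Smox-/-, against 4.52, 21.1 and 13.9 CPM untreated, which overlap (log2 change -1.37, adjusted p = 0.516).

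AOM-DSS without tumors was compared with the matching groups without AOM-DSS. In WT mice not given spermidine Cat fell, 1 of 10 against 6.44% of all genes. Cat was at 52.2, 61.2 and 63.1 CPM after AOM-DSS, against 92.2, 65.1 and 155 CPM untreated. All treated libraries were below the untreated ones, and the highest value was in untreated WT replicate 3. The log2 change was -0.82 (SE 0.23, adjusted p = 0.0381), and without untreated replicate 3 it was -0.36 (adjusted p = 0.415). It also missed the threshold without AOM-DSS replicate 1 (0.0898), 2 (0.158) or 3 (0.0673), with no filter (0.0633) and in a fit of the 2 groups alone (0.314). Hmox1, Slc7a11, Txnrd1 and Gpx2 were higher by value after AOM-DSS without passing, at adjusted p of 0.193, 0.113, 0.0933 and 0.126. For Txnrd1 all 3 treated libraries, at 409, 307 and 274 CPM, were above the untreated ones, at 212, 231 and 241 CPM. Over all genes 7.98% lay above in this way and 13.5% lay below, as Cat did. AOM-DSS replicate 1 was the highest of its group for Nqo1, Hmox1, Gclc, Gclm, Txnrd1, Slc7a11, Gpx2 and Prdx1, and macrophage markers were also highest there, at 146 summed CPM against 91.9 and 81.5 in the other 2. Across this group crypt and Wnt target genes summed to 54.9 to 343 CPM and proliferation markers to 303 to 1058 CPM. Between WT colons after AOM-DSS and untreated WT colons macrophage markers overlapped, but others did not. Smooth muscle markers summed to 350 to 2504 CPM after AOM-DSS and 4995 to 7766 CPM untreated, enteric neuron and glia markers to 34.6 to 42.9 and 85.1 to 318 CPM, skeletal muscle markers to 3.49 to 14.9 and 28.2 to 7964 CPM, and B and plasma cell markers to 478 to 731 and 18.9 to 144 CPM. Mitochondrial counts were 3.65 to 5.55% after AOM-DSS and 6.95 to 21.7% untreated. The part of these differences in the Cat result was not tested.

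The other 3 AOM-DSS comparisons gave no call among the members. In Smox-/- mice not given spermidine edgeR called 0 of 10, against 0.0767% of all genes, with 0 unadjusted p under 0.05 and 0 by DESeq2. In Smox-/- mice given spermidine it called 0 of 10, against 0.0205%, with 1 unadjusted p under 0.05 (Slc7a11) and 0 by DESeq2. In WT mice given spermidine it called 0 of 10, against 1.91%, with 4 unadjusted p under 0.05 and 0 by DESeq2. Those 4 were Nqo1, Srxn1, Cat and Slc7a11, each without overlap between the groups, where 36.4% of all genes did not overlap. Srxn1 was at 97.1, 96.9 and 94.9 CPM in WT colons after AOM-DSS with spermidine, against 140, 162 and 203 CPM after spermidine alone (adjusted p = 0.172). Nqo1 was at 33.5, 31.5 and 30.5 CPM, against 56.6, 58.2 and 62.2 CPM (adjusted p = 0.173). In both the treated libraries lay close together and below the others. Fitted on these 2 groups alone, all 4 passed, with adjusted p of 0.00245 for Nqo1, 0.0126 for Srxn1, 0.0243 for Slc7a11 and 0.0368 for Cat, and 14.6% of the 16691 genes tested in that fit were called. Colonocyte markers summed to 2484 to 4412 CPM after AOM-DSS with spermidine and 12440 to 29242 CPM after spermidine alone, and smooth muscle markers to 1076 to 1355 and 1957 to 3670 CPM. Mitochondrial counts were 2.57 to 3.63% and 4.84 to 8.65%. None of these ranges overlapped, and their part in these values was not tested.

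Among the other pathway genes in these non-tumor comparisons, 5 rose and 3 fell of 102 in WT mice after AOM-DSS, where 6.44% of all genes were called. The 8 calls became 0 to 9 with 1 library left out, 0 in a fit of the 2 groups alone, 2 with no filter and 13 by DESeq2. After AOM-DSS with spermidine relative to spermidine, 4 of 102 fell in WT, where 1.91% of all genes were called, and they became 0 to 3 with 1 library left out, 32 in a fit of the 2 groups alone and 12 by DESeq2. Among the 4 was Fth1, the ferritin heavy chain that stores iron, at 1157 ± 156 and 2905 ± 268 CPM (SD, n = 3 each; adjusted p = 0.0161). Me1 was at 3.69 ± 1.52 and 35.4 ± 2.55 CPM (adjusted p = 0.0202). Both missed the threshold without WT spermidine replicate 3 (adjusted p = 0.0700 for each) and without each replicate of WT AOM-DSS with spermidine, where it was 0.0677 to 0.109 for Fth1 and 0.0922 to 0.111 for Me1. Between the genotypes after AOM-DSS with spermidine Me1 was the only call, at 33.5 ± 29.3 CPM in Smox-/- and 3.69 ± 1.52 CPM in WT, with overlapping groups (adjusted p = 0.0493). It was called in 1 of 6 fits that left out 1 library, the one without Smox-/- replicate 2, and its adjusted p was 0.0682 to 0.256 in the others, 0.0529 with RLE scaling, 0.0870 with no filter and 0.424 in a fit of the 2 groups alone.

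Likeness was measured as the root mean square difference of log2 group means, each gene centred on its own mean, over the 10 groups and 10861 genes with a mean of at least 5 CPM. Among the members themselves the closest pairs were Gclc with Gclm, at 0.17, Txnrd1 with Prdx1, at 0.18, and Gclc with Srxn1, at 0.20. The measure is small for genes that vary little: Gclm lay at 0.15 and Prdx1 at 0.14 from a flat profile, nearer than to Gclc and Txnrd1. Nqo1 lay at 0.24 from Srxn1, and Hmox1 lay at 0.44 from Slc7a11 and at 1.16 from Nqo1. The closest genes overall to Hmox1 were Gsap (0.17), Sema6b (0.24) and Rdh10 (0.25), and to Slc7a11 they were Socs3 (0.29), Tnfrsf23 (0.32) and Mmp14 (0.34). Closest to Nqo1 were Slc30a4 (0.16), Sqor (0.17) and Fcgrt (0.18), and to Srxn1 they were Ppa2 (0.10), Pfkl (0.11) and Prelid3b (0.12). For Txnrd1 they were Scamp4, Psmd3 and Aars, for Gpx2 Hif1a, Ripk3 and Asns, and for Cat Cyb5d2, Zfyve21 and Mmaa. The distance from a flat profile was 0.80 for Hmox1, 1.12 for Slc7a11, 0.54 for Nqo1, 0.42 for Srxn1, 0.27 for Txnrd1, 0.52 for Gpx2 and 0.40 for Cat. These distances are descriptions over 10 groups that share the same libraries.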

How the data were processed

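The 10 genes, the pathway and marker lists and the tests were chosen with earlier results of these data known. Some lists were adapted from an earlier look at the data, so nothing here counts as independent support. RNA was extracted from colon with RNeasy columns and sequenced from directional NEBNext libraries, per the labels' protocols. The submitters' processing notes name fastp, Salmon, DESeq2 and GRCm38, without versions or settings. The authors deposited estimated counts (expected counts) per gene as whole numbers for 30 libraries and 31023 genes, and whether strand was used in counting is not given in the sources used here. Symbols came from the file or GENCODE vM21.

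Libraries were scaled by TMM. filterByExpr (minimum count 10, minimum total 15) kept 19558 genes. One quasi-likelihood model (edgeR 4.0.16, limma 3.58.1, R 4.3.3) with a mean per group was fitted to all 30 libraries, with 20 residual degrees of freedom and a common dispersion of 0.177. The threshold was 0.05 on p-values with Benjamini-Hochberg adjustment over the 19558 genes. The SE is the log2 change divided by the square root of F. The procedure was tested on simulated data. Other pathway genes were named from those called, up to 3 per direction and comparison by size of change, with at least 2 CPM in the higher group and 3 counts in the lower. The regulators Nfe2l2, Keap1 and Bach1 were given besides, and in the comparisons of tumors with non-tumor colon every called regulator was named. Results were recomputed with RLE scaling, with no filter, with a filter of 1 CPM in 3 libraries, with DESeq2 1.42.0, on only the groups compared, and leaving out each library or 2 atypical libraries together, which were picked from their marker levels. The difference of tumor changes was added after seeing the data. No libraries were duplicates and the labels give no batch. Counting error is part of the spread between libraries.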

Additional observations from a re-analysis of the deposited data

How the results depend on the processing

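Of the 10 genes, the number called changed with the processing as follows. In untreated Smox-/- against WT it was 1, and 0 when only these groups were fitted, 0 without 2 atypical libraries (untreated WT replicate 3 and Smox-/- replicate 1 after AOM-DSS with spermidine), 3 with DESeq2 and 0 to 2 when 1 library was left out. In WT after AOM-DSS against untreated it was 1, and 0 without a filter on low counts, 0 for only these groups, 0 without these 2 libraries and 0 to 1 with a library left out. In Smox-/- tumors against non-tumor colon it was 2, and 1 without a filter, 4 for only these groups and 0 to 2 with a library left out. In WT tumors it was 4, and 2 without a filter and 1 to 4 with a library left out. In WT after AOM-DSS with spermidine against spermidine it was 0, and 4 for only these groups. For the interaction of genotype and spermidine it was 0, and 1 with DESeq2, where 569 of all genes were called, and 1761 with DESeq2. RLE scaling and a filter of 1 CPM in 3 libraries changed none of these counts beyond 1.5 times, and no change reversed direction for any called gene. The cause was not tested. Over all genes the counts moved more: 1164 in untreated Smox-/- against WT, 6 to 1351 with a library left out and 2664 with DESeq2, and 4820 in Smox-/- tumors, 990 to 6117 and 5949. No paired analysis was possible because the labels number the samples in 1 series and share no number across groups. With 1 of the 6 libraries of a comparison left out, the call of Hmox1 in WT tumors was kept in 6 of 6 fits and that of Slc7a11 in 4, and the other 6 calls of members were kept in 0 to 2. The least abundant members, Hmox1 and Slc7a11, have the widest intervals.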
